A study of Schmidtea mediterranea with 171 samples.

Results

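The genes ptprd-9 (SmedASXL_015370), glrb (SmedASXL_010012) and grm-3 (SmedASXL_014586) are planarian transcripts named after receptors of nerve cells, and their raw counts were followed through every single cell and every tube of the series. They are 3 of 67983 transcripts in the count table. The study had cloned them because they were enriched in a group of stem cells with neural expression, which it called νNeoblasts, and that choice was made on these same cells. Their levels and their distribution over the cells are therefore given as a description, without tests.

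The cells came from the heads of 30 animals of the clonal asexual strain CIW4 of Schmidtea mediterranea, a freshwater flatworm. The animals were wildtype, were not fed for 1 week before collection, and their heads were taken as amputation fragments, a treatment that all samples share. Cells were sorted by FACS into 96 single X1 cells, 72 single X2 cells, 2 tubes of 200 X1 cells and 1 tube of 200 X2 cells. The X1 gate takes cells with the DNA content of dividing cells, which in planarians are cycling neoblasts, the adult stem cells, and the X2 gate holds mostly their early progeny. A gate is set by the fluorescence of the DNA stain Hoechst and not by a cell type. The labels do not say from which animal or sort a cell came, so each gate counts as 1 sample.

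In mammals, the protein tyrosine phosphatase PTPRD is a cell surface receptor that takes part in the formation of synapses. GLRB is the beta subunit of the glycine receptor, a chloride channel opened by glycine at inhibitory synapses. GRM3 is a metabotropic glutamate receptor, which acts through G proteins rather than through a channel of its own. All of them are best known from differentiated neurons, and neoblasts are the only dividing somatic cells of a planarian, so that new neurons of the head derive from cells such as those in the X1 gate. The planarian names rest on the closest mouse proteins, which the study listed as receptor-type tyrosine-protein phosphatase delta, glycine receptor subunit beta and metabotropic glutamate receptor 3. What the planarian proteins bind was not measured here.

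From the supplementary table of cloned genes, 399 bases of each transcript were read here, called the given sequence. The full entries may be longer, so the reading frames and GC contents below cover these bases only. The first 150 bases from the first ATG with no stop codon in frame up to the end of the given sequence are shown for each gene, to identify the transcripts behind the counts, with that ATG in capitals.
ptprd-9: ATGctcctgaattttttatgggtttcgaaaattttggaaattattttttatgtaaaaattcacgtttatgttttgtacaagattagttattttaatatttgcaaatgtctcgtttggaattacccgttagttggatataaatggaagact
glrb: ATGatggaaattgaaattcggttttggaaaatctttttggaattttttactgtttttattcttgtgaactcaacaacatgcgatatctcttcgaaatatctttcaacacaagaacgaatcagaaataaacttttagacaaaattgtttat
grm-3: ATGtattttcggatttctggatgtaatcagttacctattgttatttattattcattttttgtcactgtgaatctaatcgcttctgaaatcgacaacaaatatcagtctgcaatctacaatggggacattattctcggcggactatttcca
The ATG lay at base 22 of the given sequence for ptprd-9, at base 67 for glrb and at base 65 for grm-3. The given sequences were rich in A and T, with a GC content of 32.6% for ptprd-9, 31.8% for glrb and 35.3% for grm-3. The transcripts were not placed on a genome here, and the reading frames were not compared with a known protein.

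Levels are given as CPM, the reads of a transcript scaled by the reads assigned to transcripts in the same library (counts per 1 M), and detection of a gene in a cell means 5 CPM or more here. CPM is not corrected for transcript length, so levels were compared between cells for the same gene and not between genes. X1 cells had a median of 3.18 M assigned reads (range 0.813 to 20.2 M) on 5040 transcripts, and X2 cells 2.7 M (0.55 to 4.80 M) on 1894 transcripts. The gates thus differed more in transcripts per cell than in reads. Thinning every cell to 500000 reads left the medians at 3434 transcripts in X1 cells and 1154 in X2 cells. piwi-2, an Argonaute gene of neoblasts, was detected in 95 of 96 X1 cells and in 58 of 72 X2 cells and so does not separate the gates. X1 cells numbered 25 to 72 and the second X1 tube stood apart for these genes, as described with the results that rest on them.

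Each receptor gene was found at a high level in a few X1 cells and in none of the X2 cells. The phosphatase gene ptprd-9 was detected in 9 of 96 X1 cells (9.38%, exact binomial 95% interval 4.38 to 17.1) and in 0 of 72 X2 cells, which allows a share of up to 4.17%. The glycine receptor gene glrb was detected in 8 of 96 X1 cells (8.33%, 3.67 to 15.8) and in 0 of 72 X2 cells. The glutamate receptor gene grm-3 was detected in 3 of 96 X1 cells (3.12%, 0.649 to 8.86) and in 0 of 72 X2 cells. The intervals cover counting error only. By the same exact method the interval for 0 of 72 cells reaches 4.994%, so the intervals of X1 and X2 cells overlap for all 3 genes. Being found in 3 or more X1 cells and in at most 2 X2 cells was common among transcripts, as 64.6% of the 13168 transcripts detected in at least 5 of the 168 cells met it.

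Among the 9 X1 cells with ptprd-9 the level ran from 57.5 CPM in X1 cell 31 to 676 CPM in X1 cell 41, with a median of 250 CPM. The other 7 were X1 cell 4 at 205 CPM, X1 cell 13 at 200.0 CPM, X1 cell 24 at 438 CPM, X1 cell 37 at 250 CPM, X1 cell 38 at 441 CPM, X1 cell 43 at 222 CPM and X1 cell 61 at 657 CPM. The highest X1 cell below the threshold had 2 reads and 1.849 CPM. No cell lay between it and X1 cell 31, so the 9 cells were separated from the rest by a wide gap.

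Among the 8 X1 cells with glrb the levels spread further, over a 67.6-fold range with a median of 233 CPM. X1 cell 24 had 670.4 CPM, X1 cell 38 had 407 CPM, X1 cell 7 had 375 CPM, X1 cell 65 had 244 CPM, X1 cell 4 had 223 CPM and X1 cell 6 had 158 CPM. X1 cell 46 at 27.8 CPM and X1 cell 53 at 9.92 CPM were far below these and closest to the threshold. The highest cell below it was X1 cell 37, with 4 reads and 3.45 CPM.

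For grm-3 the 3 cells were alike, within a 1.831-fold range. X1 cell 43 had 329 CPM, X1 cell 27 had 264 CPM and X1 cell 38 had 179.8 CPM. Below the threshold, the highest of the other X1 cells had 1 read and 0.924 CPM.

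The mean over all X1 cells was therefore set by a few cells. It was 32.8 CPM for ptprd-9 in X1 cells (SD 120.0, 96 cells), against 0.0448 CPM in X2 cells (SD 0.160, 72 cells). For glrb it was 22.1 CPM in X1 cells (SD 94.3) and 0.0429 CPM in X2 cells (SD 0.210). For grm-3 it was 8.07 CPM in X1 cells (SD 46.4), and no X2 cell held a read. The median was 0 in both gates for all 3 genes. Without X1 cell 43 the X1 mean of grm-3 was 4.70 CPM.

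On the scale of log2(mean CPM + 1) the difference between X1 and X2 cells was 5.02 for ptprd-9 and 4.47 for glrb. Both are beyond a 4-fold ratio, which 17.9% of the 13168 transcripts exceeded upward and 5.18% downward. The median difference over these transcripts was 0.55, and it moved by 0.16 with TMM scaling. grm-3 did not reach 5 of the 168 cells and so was not among them. Nothing is read from this comparison, since the genes had been chosen on these cells. Summed over cells, ptprd-9 had 7128 reads in X1 cells and 9 in X2 cells, a ratio of pooled CPM of 402 (counting interval 212 to 879.6), and without X2 cell 16, which held 3 of the 9 reads, the ratio was 594. glrb had 5448 reads in X1 cells and 8 in X2 cells, a ratio of 346 (175 to 801), or 681 without X2 cell 16, which held 4 of the 8. grm-3 had 2180 reads in X1 cells and 0 in X2 cells and was at least 369-fold higher in X1 cells by a floor of 3 reads over the X2 cells, or at least 136-fold without X1 cell 43. The counting intervals of ratios, here and below, treat each amplified read as independent. They leave out the spread between cells or tubes and are too narrow for it.

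**Figure D1:**
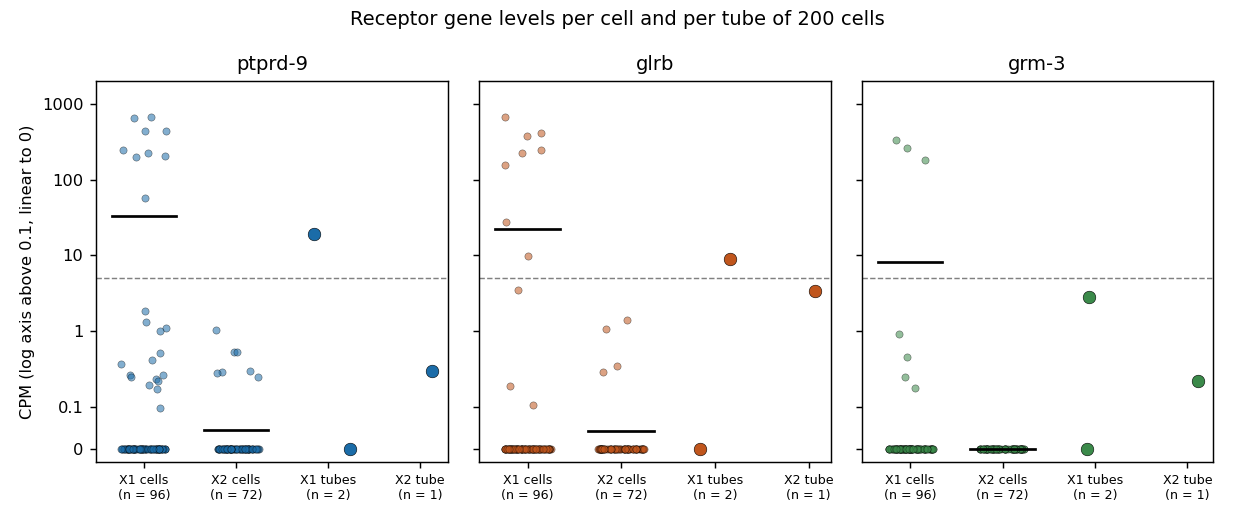
CPM of ptprd-9, glrb and grm-3 in single cells (small points, 96 X1 cells and 72 X2 cells, black line at the mean) and in tubes of 200 cells (large points), on an axis that is logarithmic above 0.1 and linear down to 0. The dashed line marks 5 CPM. Points above it are 9 X1 cells for ptprd-9, 8 for glrb and 3 for grm-3, and no X2 cell lies above it.

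Below 5 CPM there were scattered reads in both gates. Among X1 cells, 15 held 1 or 2 reads of ptprd-9, 3 held 1 to 4 reads of glrb and 4 held 1 read of grm-3. Among X2 cells, 7 held 1 to 3 reads of ptprd-9 and 4 held 1 to 4 reads of glrb. With 1 read as the criterion, ptprd-9 was in 24 X1 cells (25.0%) and 7 X2 cells (9.72%), glrb in 11 X1 cells (11.5%) and 4 X2 cells (5.56%), and grm-3 in 7 X1 cells (7.29%) and 0 X2 cells. After thinning every cell to 500000 reads, which left out 0 cells, at least 1 read remained in 12, 9 and 5 X1 cells for ptprd-9, glrb and grm-3 and in 0 X2 cells for each. The scattered reads were thus of the same low size in both gates, and the 5 CPM threshold leaves them out.

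The 3 genes overlapped only in part. At least 1 of them was detected in 15 of 96 X1 cells (15.6%, 9.02 to 24.46), and at least 2 were detected in 4 cells (4.17%, 1.147 to 10.3). Of the 15 cells, 5 had ptprd-9 alone, 5 had glrb alone and 1, X1 cell 27, had grm-3 alone. ptprd-9 with glrb was seen in X1 cells 4 and 24, ptprd-9 with grm-3 in X1 cell 43, and glrb with grm-3 but without ptprd-9 in 0 cells. X1 cell 38 was the only X1 cell with all 3, at 441 CPM of ptprd-9, 407 CPM of glrb and 179.8 CPM of grm-3.

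Joint detection was thus less common than detection of 1 gene alone, which held for 11 of the 15 cells. glrb was detected in 3 of 9 cells with ptprd-9 (33.3%, 7.49 to 70.1) and in 5 of 87 X1 cells without it (5.75%, 1.892 to 12.9). grm-3 was detected in 2 of 9 cells with ptprd-9 and in 1 of 87 without it. Read the other way, ptprd-9 was in 3 of 8 cells with glrb and in 6 of 88 without it. The intervals for glrb with and without ptprd-9 overlap.

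When a second receptor gene was not detected it was mostly at 0 reads and not at a low level. A transcript can also be lost in cDNA synthesis, which the paper names as a common source of technical variation. The part of such loss in these zeros was not tested. In the 6 cells with ptprd-9 and without detected glrb, X1 cells 13, 31, 41, 43 and 61 had 0 reads of glrb and X1 cell 37 had 4. In the 5 cells with glrb and without detected ptprd-9, X1 cells 6, 7, 46 and 65 had 0 reads of ptprd-9 and X1 cell 53 had 1. Over the 96 X1 cells, Pearson's r of log2(CPM + 1) was 0.39 between ptprd-9 and glrb (Spearman's rho 0.22), 0.38 between ptprd-9 and grm-3 (rho 0.33) and 0.18 between glrb and grm-3 (rho 0.15). These values are weak, rest on the few cells that have both genes and are given as a description of 1 gate.

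**Figure D2:**
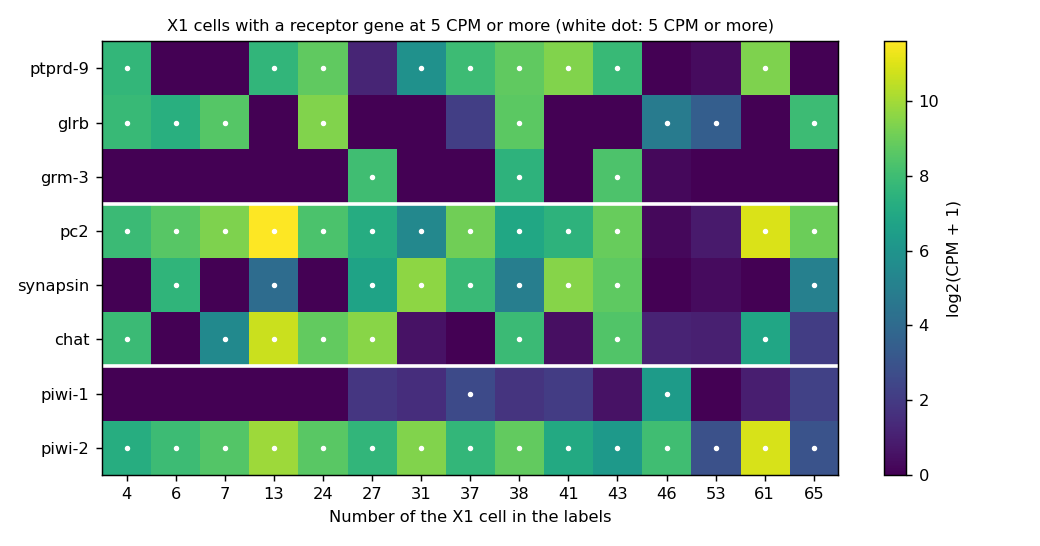
The 15 X1 cells in which ptprd-9, glrb or grm-3 was detected, by the cell number in the labels, with the level of each gene as log2(CPM + 1) and a white dot at 5 CPM or more. The receptor genes fill the upper block in different combinations, with all 3 in cell 38. The neural genes in the middle block are under 5 CPM in cells 46 and 53, and piwi-1 in the lower block reached 5 CPM in cells 37 and 46.

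The 15 cells held RNA of other neural genes as well. pc2, a prohormone convertase that processes neuropeptides, was detected in 13 of the 15 cells with a receptor gene and in 24 of the other 81 X1 cells. synapsin, a protein of synaptic vesicles, was detected in 9 of 15 cells and in 7 of 81. chat, the enzyme that makes acetylcholine, was detected in 8 of 15 cells and in 12 of 81. The sum of these 3 genes had a median of 770 CPM (1.409 to 4793) in cells with a receptor gene and of 3.85 CPM (0 to 3175) in X1 cells without one. Of the 15 cells, 4 had all 3 neural genes, 9 had 2 of them and 2, X1 cells 46 and 53, had none at 5 CPM. At least 1 of these 3 markers was thus in 13 of the 15 cells and in 35 of the 81 others. The markers were themselves among the transcripts on which the study grouped its cells. The receptor genes were chosen from such a group, so these counts do not test the label of neural receptor genes. Among X1 cells low in piwi-1, under 5 CPM, pc2 was detected in 12 of 13 cells with a receptor gene and in 4 of 14 without one, synapsin in 8 of 13 and in 2 of 14, and chat in 8 of 13 and in 2 of 14.

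X1 cells 46 and 53 were also those with the lowest glrb. In X1 cell 46 glrb stood at 27.8 CPM beside pc2 at 0.176 CPM and chat at 1.233 CPM. In X1 cell 53 glrb stood at 9.92 CPM beside pc2 at 0.783 CPM. All 9 cells with ptprd-9 and all 3 cells with grm-3 had pc2 at 5 CPM or more, as had 6 of the 8 cells with glrb. All 3 cells with grm-3 had synapsin and chat as well.

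Of the neural genes other than the receptors, chat was common in X2 cells, while pc2 and synapsin were rare there. chat was detected in 33 of 72 X2 cells and in 20 of 96 X1 cells. pc2 was detected in 3 of 72 X2 cells and in 37 of 96 X1 cells, and synapsin in 1 of 72 X2 cells and in 16 of 96 X1 cells. At least 1 of the 3 neural genes was thus found in 36 X2 cells, 33 of them with chat. None of these 36 cells had a receptor gene at 5 CPM.

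Of the neoblast genes, piwi-2 was found in all cells with a receptor gene and the others in a smaller share of them than of the other X1 cells. piwi-2 was detected in 15 of 15 cells with a receptor gene, at a median of 249 CPM, and in 80 of the 81 X1 cells without one, at a median of 690.3 CPM. In 2 of the 15 cells it was near the threshold, at 6.27 CPM in X1 cell 53 and 6.86 CPM in X1 cell 65. piwi-1, which encodes another Argonaute protein and is the most used neoblast marker, was detected in 2 of 15 cells with a receptor gene and in 67 of 81 without one. vasa-1, an RNA helicase gene of neoblasts, was detected in 4 of 15 cells and in 63 of 81. piwi-3 was detected in 8 of 15 and in 64 of 81, and bruli, an RNA-binding protein gene of neoblasts, in 7 of 15 and in 58 of 81. These shares moved with piwi-1, since bruli was detected in 8 of 27 X1 cells low in piwi-1 and in 57 of 69 high in it, vasa-1 in 7 of 27 and in 60 of 69, and piwi-3 in 13 of 27 and in 59 of 69. Within the low cells, bruli was detected in 5 of 13 cells with a receptor gene and in 3 of 14 without one, vasa-1 in 4 of 13 and in 3 of 14, and piwi-3 in 6 of 13 and in 7 of 14, so the lower shares were not seen there for bruli and vasa-1. The sum of the 5 neoblast genes had a median of 556 CPM (8.88 to 2061) in cells with a receptor gene and of 1559 CPM (3.17 to 7782) in those without one.

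Markers of other lineages did not reach the threshold in these cells. zfp-1 and soxP-3, genes of the epidermal lineage, were detected in 0 of 15 cells with a receptor gene, against 17 and 9 of the 81 X1 cells without one. pou2/3, a gene of protonephridia, the excretory organ, was detected in 0 of 15 cells and in 3 of 81. A share of 0 of 15 allows up to 20.0%. All X1 cells with any of these 3 markers were high in piwi-1, and the markers were detected in 0 of the 27 low cells, with or without a receptor gene. The sum of the epidermal genes reached at most 4.04 CPM in a cell with a receptor gene. alpha-tubulin, used as a gene of all cells, was detected in 14 of 15 and in 72 of 81.

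The cells with a receptor gene were not deeper than the others. They had a median of 2.528 M assigned reads (1.03 to 5.77 M) against 3.20 M in the 81 others. They had reads on a median of 5028 transcripts (1685 to 7252) against 5052, or 3563 against 3319 after thinning.

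The study cloned 8 further genes together with the 3 receptor genes, and each was detected in a larger share of the cells with a receptor gene than of the others. All had been chosen in the same way, so that their counts are a description as well. ston-2, named after stonin-2, an adaptor in the recycling of synaptic vesicles in mammals, was detected in 9 of 15 cells with a receptor gene and in 4 of 81 without one. syt-11, a synaptotagmin gene of the family that acts in vesicle fusion, was detected in 7 of 15 and in 1 of 81. The elav genes encode RNA-binding proteins known from the neurons of flies. elav-2 was detected in 7 of 15 and in 8 of 81, elav3-11 in 6 of 15 and in 1 of 81, and elav3-16 in 4 of 15 and in 1 of 81. The Musashi genes encode RNA-binding proteins known from neural progenitors of flies and mammals. msi-1 was detected in 9 of 15 and in 11 of 81, and msi-2 in 4 of 15 and in 0 of 81. sec14-l2, of a family of lipid transfer proteins, was detected in 5 of 15 and in 1 of 81. Each of the 15 cells had at least 1 of the 8 genes, with a median of 4, against 20 of the 81 others. The sum of the 8 genes had a median of 846 CPM (6.79 to 2715) in cells with a receptor gene and of 0.35 CPM (0 to 1447) in those without one. Among X1 cells low in piwi-1, 13 had a receptor gene and 14 had none. There, msi-1 was detected in 9 of 13 and in 6 of 14, and elav-2 in 6 and in 4. ston-2 was in 9 and in 2, syt-11 in 7 and in 0, elav3-11 in 5 and in 1, and elav3-16 in 4 and in 1. msi-2 and sec14-l2 were each in 4 and in 0.

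Counted by receptor gene, msi-1 was detected in 8 of 9 cells with ptprd-9 and in 4 of 8 cells with glrb. ston-2 was detected in 7 of 9 cells with ptprd-9 and in 5 of 8 with glrb, and syt-11 in 6 of 9 and in 3 of 8. Of the 3 cells with grm-3, 2 had ston-2, 2 had msi-1, 2 had syt-11, 2 had elav3-11 and 0 had sec14-l2 or msi-2. Cells with ptprd-9 and glrb overlap and are few, so these counts are not set against each other by a test.

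X1 cells were then split by piwi-1 at 5 CPM, which gave 27 cells low and 69 cells high in piwi-1. The receptor genes lay almost entirely in the low X1 cells. In X2 cells piwi-1 was under 5 CPM in 26 of 72, and none of the X2 cells had a receptor gene at 5 CPM. The split follows a property of the cell group on which the study had chosen the genes, so the values are a description. At least 1 receptor gene was detected in 13 of 27 cells low in piwi-1 (48.1%, 28.7 to 68.1) and in 2 of 69 cells high in piwi-1 (2.899%, 0.353 to 10.1). ptprd-9 was detected in 8 of 27 low cells (29.6%, 13.8 to 50.2) and in 1 of 69 high cells (1.449%, 0.0367 to 7.81). glrb was detected in 7 of 27 low cells (25.9%, 11.1 to 46.3) and in 1 of 69 high cells (1.449%). grm-3 was detected in 3 of 27 low cells (11.1%, 2.353 to 29.2) and in 0 of 69 high cells, which allows up to 4.35%. The intervals do not overlap for ptprd-9, glrb or the 3 genes together. They cover counting error only, and the genes were chosen on these cells, so this is not a test. Of the 11290 transcripts detected in at least 5 X1 cells, 6.27% were in 3 or more low cells and in at most 2 high cells.

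The 4 cells with 2 or 3 receptor genes were all low in piwi-1. Thinned to 500000 reads and counted at 1 read or more, ptprd-9 was in 10 of 27 low and 2 of 69 high cells, glrb in 7 and 2, and grm-3 in 3 and 2. Other neural genes leaned the same way but were found in more of the high cells. pc2 was detected in 16 of 27 low cells (59.3%) and in 21 of 69 high cells (30.4%), synapsin in 10 of 27 and in 6 of 69, and chat in 10 of 27 and in 10 of 69. piwi-2 was detected in 26 of 27 low cells and in 69 of 69 high cells.

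**Figure D3:**
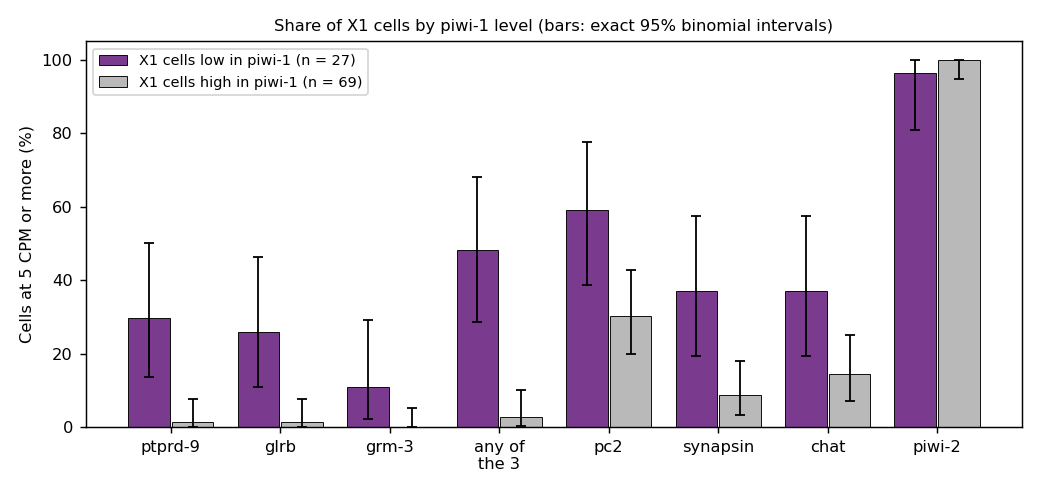
Share of X1 cells with each gene at 5 CPM or more, for the 27 cells low in piwi-1 (left bar of each pair) and the 69 cells high in piwi-1 (right bar), with exact binomial 95% intervals. For any of the 3 receptor genes the bars stand at 48.1% and 2.899%, while pc2 stands at 59.3% and 30.4% and piwi-2 is near the top in both.

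The exceptions among the high cells were X1 cells 37 and 46. X1 cell 37 had 250 CPM of ptprd-9 and 5.18 CPM of piwi-1, the lowest piwi-1 level of all high cells and just over the split. The next cells above the split were X1 cell 23 at 12.7 CPM, X1 cell 18 at 25.8 CPM and X1 cell 1 at 29.2 CPM of piwi-1, none with a receptor gene. Just below the split stood X1 cell 36 at 4.504 CPM and X1 cell 56 at 3.88 CPM without a receptor gene, and X1 cell 65 at 3.78 CPM and X1 cell 41 at 3.16 CPM with one. X1 cell 46, at 82.8 CPM of piwi-1 and 27.8 CPM of glrb, was therefore the only cell clearly high in piwi-1 that had a receptor gene.

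Of the 13 low cells with a receptor gene, 6 had 0 reads of piwi-1, namely X1 cells 4, 6, 7, 13, 24 and 53. The other 7 had 0.475 to 3.78 CPM of piwi-1. High receptor levels occurred in both sets, as X1 cell 24 had 438 CPM of ptprd-9 with 0 CPM of piwi-1 and X1 cell 41 had 676 CPM of ptprd-9 with 3.16 CPM of piwi-1. The 14 low cells without a receptor gene had a median of 2.368 M assigned reads and 2738.5 transcripts after thinning, against 2.528 M reads and 3479 transcripts in the 13 with one.

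The means followed the shares. ptprd-9 averaged 107 CPM in the 27 low cells (SD 205) and 3.68 CPM in the 69 high cells (SD 30.0), and the high mean was 0.0610 CPM without X1 cell 37. glrb averaged 77.3 CPM in low cells (SD 167) and 0.456 CPM in high cells (SD 3.37), and the high mean was 0.0535 CPM without X1 cell 46. grm-3 averaged 28.6 CPM in low cells (SD 85.1) and 0.0227 CPM in high cells (SD 0.125), and the low mean was 17.1 CPM without X1 cell 43. On the scale of log2(mean CPM + 1), low over high, the difference was 4.53 for ptprd-9 and 5.75 for glrb. Of the 11290 transcripts, 11.0% were at least 4-fold higher and 11.0% at least 4-fold lower in low cells, with a median difference of 0.15. TMM scaling moved that median by -0.38 and turned the split from 1244 higher and 1245 lower transcripts into 791 higher and 1553 lower. ptprd-9 and glrb stayed higher in low cells under it. Both exceed 4-fold, and grm-3, found in 3 cells, was not among the transcripts counted. grm-3 had 2177 reads in low cells and 3 in high cells, a ratio of pooled CPM of 2302 (counting interval 787 to 11171), or 878 without X1 cell 43.

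**Figure D4:**
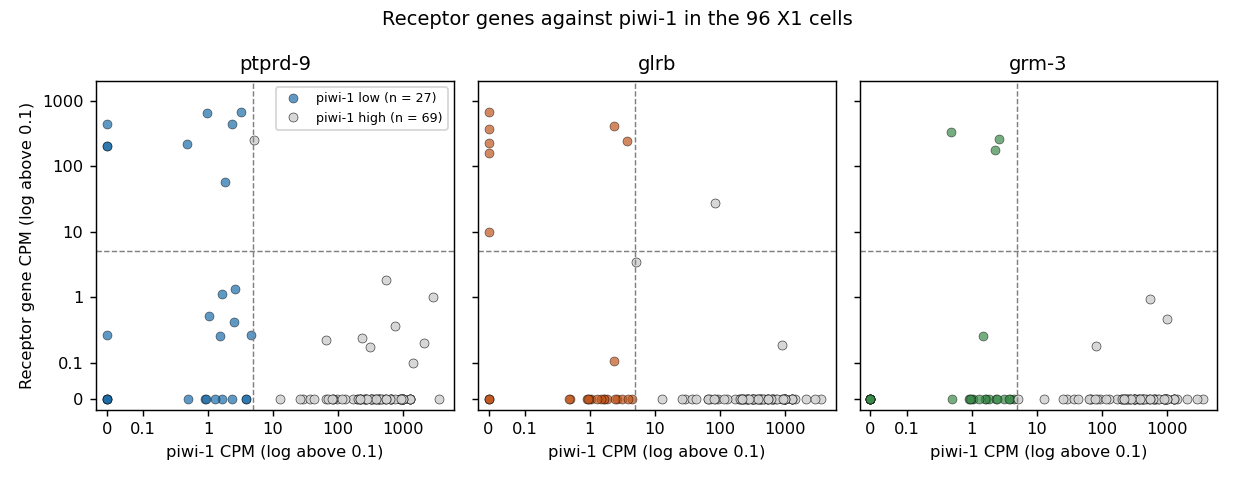
CPM of each receptor gene against CPM of piwi-1 in the 96 X1 cells, on axes that are logarithmic above 0.1 and linear down to 0, with dashed lines at 5 CPM and cells low in piwi-1 in color. The upper left corner holds 8, 7 and 3 cells for ptprd-9, glrb and grm-3. The upper right corner holds X1 cell 37 for ptprd-9, next to the line, and X1 cell 46 for glrb.

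The hierarchical clustering of the study, run again on the deposited normalized values with 10 groups, put most of these cells together. ptprd-9, glrb and grm-3 ranked 80, 79 and 491 by variation in that table and so were among the 1000 transcripts clustered, which makes their levels by group a description. The paper named its Group 3 the νNeoblasts and chose these genes as enriched in it, so their gathering there follows from that choice. Group 3, a group of 17 X1 cells of which 15 were low in piwi-1, held 12 of the 15 cells with a receptor gene. It had 8 of 9 cells with ptprd-9, 6 of 8 with glrb and 3 of 3 with grm-3. Its mean level was 182 CPM for ptprd-9, 109 CPM for glrb and 45.5 CPM for grm-3.

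Group 1, with 55 X1 cells, held the other 3 cells, which were X1 cell 31 with ptprd-9 and X1 cells 46 and 65 with glrb. Its mean was 1.1499 CPM for ptprd-9, 4.94 CPM for glrb and 0.0330 CPM for grm-3. Group 4, with 17 X1 and 17 X2 cells, had a mean of 0.0478 CPM for ptprd-9 and 0.0512 CPM for glrb, and no cell of Group 2 (7 X1 cells) held a read of the 3 genes. In the groups made of X2 cells alone the means were at most 0.134 CPM for ptprd-9 and 0.0756 CPM for glrb. The order for ptprd-9 and glrb was thus Group 3, then Group 1, then the others, which lie at the level of single reads and are not told apart. X1 cell 37, over the piwi-1 split, was in Group 3, and X1 cells 31 and 65, below it, were in Group 1.

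The cells with receptor genes were not spread evenly over the cell numbers in the labels, and no label says whether a number stands for a plate or a batch. Among X1 cells 1 to 24, 5 had a receptor gene, among cells 25 to 48, 7, among cells 49 to 72, 3, and among cells 73 to 96, 0. The same ranges held 6, 10, 9 and 2 cells low in piwi-1, of which 5, 5, 3 and 0 had a receptor gene. Within the first 3 ranges the counts were 5 of 6 low and 0 of 18 high cells, 5 of 10 low and 2 of 14 high cells, and 3 of 9 low and 0 of 15 high cells, so the share was higher in low cells in each. The last range had 2 low cells, too few for a value. All 3 cells with grm-3 and X1 cell 38 were among cells 25 to 48.

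Single reads of the receptor genes followed the numbers more closely. The 22 pairs of a gene and an X1 cell with reads below 5 CPM fell 0, 14, 8 and 0 into the 4 ranges, so that cells 1 to 24 and 73 to 96 had either a receptor gene above 5 CPM or no read of it. piwi-1 had 0 reads in 6, 0, 2 and 0 cells of the 4 ranges, and pc2 had 0 reads in 14, 3, 3 and 11. Median assigned reads were 3.48, 2.17, 3.90 and 3.47 M and median transcripts 3518.5, 5243.5, 5304 and 6505.5. In X1 cells 1 to 24 the read counts of the receptor and marker genes were mostly even numbers and never 1, unlike those of cells 25 to 48. A criterion of 1 read may therefore not mean the same in each range. The part of the cell number in the scattered reads was not tested. Without X1 cells 25 to 72, 5 of 48 cells had a receptor gene, 2 had more than 1 and 0 had all 3.

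**Figure D5:**
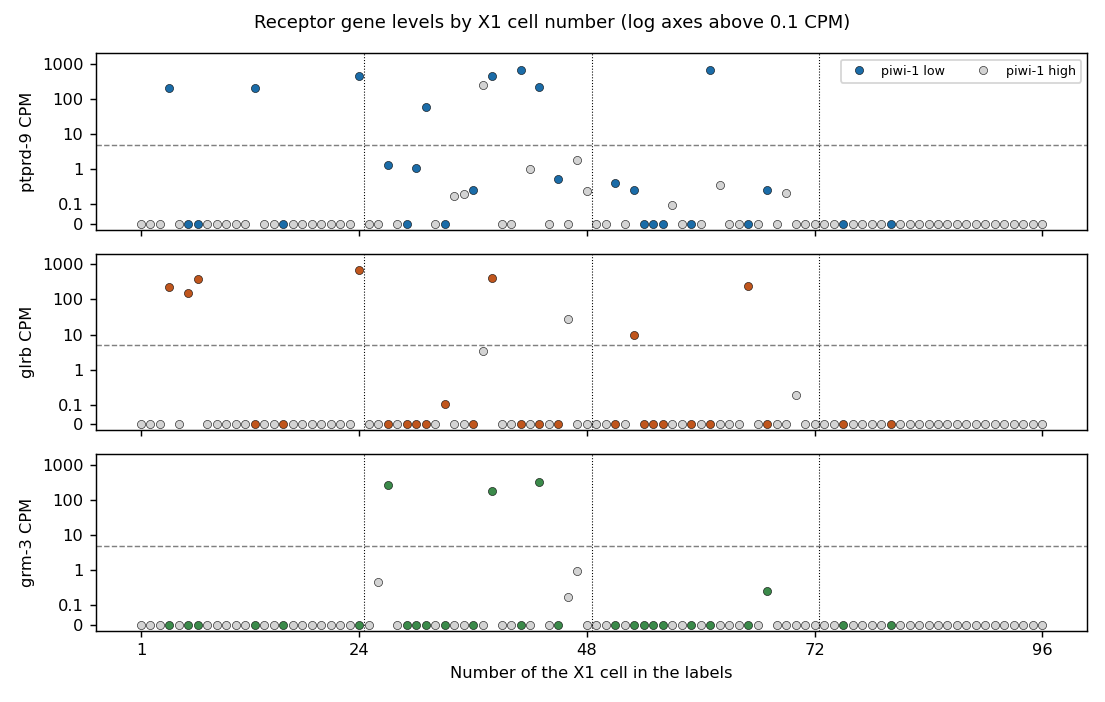
CPM of ptprd-9, glrb and grm-3 by X1 cell number, on axes logarithmic above 0.1 and linear down to 0, with cells low in piwi-1 in color, a dashed line at 5 CPM and dotted lines between ranges of 24 cells. Points between 0 and 5 CPM occur in cells 26 to 70 and not in cells 1 to 24 or 73 to 96.

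The tubes of 200 cells differed from each other within the X1 gate. In X1 tube 1, with 18.4 M assigned reads, ptprd-9 had 352 reads or 19.1 CPM (exact Poisson 95% interval 17.2 to 21.2), glrb 164 reads or 8.90 CPM (7.59 to 10.4) and grm-3 52 reads or 2.823 CPM (2.108 to 3.702). In X1 tube 2, with 10.7 M assigned reads, all 3 genes had 0 reads, which allows up to 0.281 CPM. In the X2 tube, with 13.6 M assigned reads, ptprd-9 had 4 reads or 0.294 CPM (0.0802 to 0.753), glrb 46 reads or 3.38 CPM (2.477 to 4.51) and grm-3 3 reads or 0.221 CPM (0.0455 to 0.645). In 200 cells, fewer cells with a gene and less of its RNA per cell cannot be told apart.

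X1 tube 1 was thus above both other tubes for each gene. Against the X2 tube the ratio was 65.0 for ptprd-9 (counting interval 25.1 to 239.7), 2.632 for glrb (1.887 to 3.73) and 12.8 for grm-3 (4.14 to 64.1). Against X1 tube 2 it was at least 67.9-fold higher for ptprd-9, at least 31.6-fold for glrb and at least 10.0-fold for grm-3, by a floor of 3 reads in that tube. The X2 tube stood above X1 tube 2 for glrb, although no single X2 cell reached 5 CPM of it. With 2 tubes against 1, no test was made.

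X1 tube 2 was low in other neural genes too. pc2 stood at 131 CPM in X1 tube 1, 24.9 CPM in X1 tube 2 and 30.4 CPM in the X2 tube. synapsin stood at 23.3 CPM in X1 tube 1, 0 CPM in X1 tube 2 and 14.4 CPM in the X2 tube. chat stood at 78.2 CPM in X1 tube 1, 0.563 CPM in X1 tube 2 and 9.56 CPM in the X2 tube. piwi-1, in contrast, stood at 427 CPM in X1 tube 1, 548 CPM in X1 tube 2 and 475 CPM in the X2 tube. The tubes thus differed far more in the neural genes than in piwi-1, and which of the X1 tubes is nearer to the gate cannot be told from 2 tubes. The pooled single X1 cells stood at 19.1 CPM for ptprd-9, 14.6 CPM for glrb and 5.85 CPM for grm-3. For each gene this was nearer to X1 tube 1 than to X1 tube 2. The labels do not say whether single cells and tubes share a sort.

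The transcripts most alike in pattern to each gene were sought among 5548 transcripts detected in at least 10 X1 cells, by Pearson's r of log2(CPM + 1) over the 96 X1 cells. The receptor genes were detected in 9, 8 and 3 X1 cells, so transcripts as rare as they are were left out by this filter. Most of the transcripts found are given by their assembly ID alone. For ptprd-9 the closest was SmedASXL_009400 (r 0.77, rho 0.68, and r 0.75 without the 2 cells highest in ptprd-9), detected in 8 of the 9 cells with ptprd-9 and in 14 X1 cells in all. It was followed by SmedASXL_011395 (r 0.72), SmedASXL_071597 (r 0.72), SmedASXL_000876 (r 0.71) and SmedASXL_010213 (r 0.70). pc2 came at rank 33 for ptprd-9 with an r of 0.55. It came at rank 45 for glrb (r 0.39) and at rank 389 for grm-3 (r 0.25).

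For glrb the values were lower. The closest was SmedASXL_007904 (r 0.63, rho 0.42), detected in 4 of the 8 cells with glrb, and its r was 0.44 without the 2 cells highest in glrb. SmedASXL_011092 (r 0.60) was detected in 8 of the 8 cells and in 23 X1 cells in all. SmedASXL_017589 (r 0.59), SmedASXL_071241 (r 0.56) and ston-2 (r 0.54) came next. For grm-3 the closest was SmedASXL_011494 (r 0.74, rho 0.25), which had an r of 0.43 without the 2 highest cells, followed by SmedASXL_000759 (r 0.68), SmedASXL_014582 (r 0.66), SmedASXL_003571 (r 0.61) and SmedASXL_015675 (r 0.60). All 5 were detected in 3 of the 3 cells with grm-3, and in 10 to 13 X1 cells in all. With so few cells the order of these transcripts rests on single cells. The 96 cells differ in depth and in number range, and the part of these in the values was not tested.

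Detection in few cells of 1 gate was itself frequent. Of 35820 transcripts detected in at least 1 X1 cell, 11463 were detected in 3 to 9 X1 cells, as the 3 receptor genes were, and 5421 of these were detected in 0 X2 cells.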

How the data were processed

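Single cells and tubes of 200 cells were sequenced by the authors as 50-bp reads after SmartSeq2, which uses no molecular identifiers, so that counts are of amplified reads. Each library was 1 sorted cell or tube, no cell barcodes were shared, and doublets were not called. After trimming of 15 bp at the 3′ end, reads were aligned by the authors to the SmedASXL transcripts and deposited as raw counts per transcript, which are not normalized. The submitters' processing notes name bcl2fastq 1.8.3, Bowtie2 2.2.4 and DESeq2. Also deposited was a normalized signal of the 168 single cells, counts divided by size factors and Winsorized over the 2 most extreme cells. Recomputed normalized counts matched these values for these genes (largest relative difference 9.96e-10). The size factors rest on 29 transcripts and the entry of unassigned reads, with a mean of 0.926 in X1 cells and 2.06 in X2 cells. Unassigned reads, a median of 17.4% of counts in X1 cells and 40.3% in X2 cells, were left out of CPM.

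No test was made, since each gate is 1 sample. Shares have exact Clopper-Pearson 95% intervals, reads have exact Poisson intervals, and a count of 0 allows 3 counts. The genes named are the 3 receptor genes, piwi-1, piwi-2, markers of neurons, neoblasts and other lineages, the 8 genes cloned with the receptor genes, and the 5 transcripts most alike to each. The receptor genes and the lists were chosen with earlier results of these data known. The names of 6 markers (piwi-3, vasa-1, bruli, zfp-1, soxP-3 and pou2/3) come from pairing listed values with transcripts. Thinning drew reads without replacement (seed 1). Groups used Euclidean distance and ward.D2 on 1000 transcripts. Scripts were tested on simulated data. TMM factors came from edgeR 4.0.16 in R 4.3.3 with data.table version 1.17.8, and the rest from scipy 1.17.1, pandas 2.3.3, numpy 2.4.6 and matplotlib 3.10.9 in Python 3.11.15. Alternatives covered the threshold, thinning, pseudocount, scaling, piwi-1 split, filter and cells or tubes used.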

Additional observations from a re-analysis of the deposited data

How the results depend on the processing

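Of 164 alternatives to 31 results, 44 moved the value and 120 did not. The limit was the counting interval for shares, the SD of the tubes for tube means and 1.5 times for counts and ratios. No ratio or log2 difference of the receptor genes turned round. Without X1 tube 1 the X1 tube mean was 0 for each gene, below the X2 tube (0.294, 3.38 and 0.221 CPM for ptprd-9, glrb and grm-3). Leaving out 1 of 2 tubes cannot move their mean beyond their SD, so those alternatives could not be among the 44. The balance of transcripts higher and lower in low cells did change (2831 and 1525 unfiltered, 791 and 1553 with TMM factors). These limits are wide for few cells and tubes. With 1 read as the criterion, ptprd-9 was in 25.0% of X1 cells, 55.6% of X1 cells low in piwi-1, 13.0% of X1 cells high in piwi-1 and 9.72% of X2 cells, glrb was in 5.56% of X2 cells, and 31 X1 cells had at least 1 and 10 at least 2 receptor genes. Thinned to 500000 reads, 7 X1 cells had at least 2. At 50 CPM or more, glrb was in 0% of cells high in piwi-1, as was ptprd-9 with the piwi-1 split at 50 CPM. Without X1 cells 1 to 24, 2 of 72 cells had at least 2 receptor genes, against 4 of 96 with all X1 cells. An alternative chosen after seeing the data left out X1 cells 25 to 72. In it, 5 of 48 cells had at least 1 receptor gene, 2 at least 2 and 0 all 3. With 48 of 96 cells left, an unchanged share already takes a count past 1.5 times. Those moves therefore say nothing about the shares.

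The log2 difference of X1 over X2 cells, 5.02 for ptprd-9 and 4.47 for glrb, became 7.83 and 7.28 with a pseudocount of 0.1, 2.09 and 1.675 with a pseudocount of 10, 4.35 and 3.802 with TMM factors, 6.93 and 6.59 with normalized counts, and 6.90 and 6.28 with the Winsorized values. For glrb it was 3.35 without X1 cells 1 to 24. The log2 difference of X1 cells low over high in piwi-1, 4.53 for ptprd-9, 5.75 for glrb and 4.86 for grm-3, became 3.10 for ptprd-9, 3.06 for glrb and 1.947 for grm-3 with a pseudocount of 10. With a pseudocount of 0.1 it was 7.12 for glrb and 7.87 for grm-3. With the piwi-1 split at 1 CPM it was 2.8698 for ptprd-9, 3.60 for glrb and 2.05 for grm-3, and with the split at 50 CPM it was 6.50 for ptprd-9. For glrb it was 4.80 with TMM factors and 4.33 without X1 cells 1 to 24. For grm-3 it was 4.15 without the highest low cell, and for ptprd-9 it was 6.67 without the highest high cell, the last chosen after seeing the data. Among all transcripts, 4356 differed at least 4-fold between low and high cells with no filter beyond 1 read (2831 higher and 1525 lower in low cells), against 2489 with the filter (1244 higher and 1245 lower).

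The ratios of pooled CPM without single cells were chosen after seeing the data. Low over high in piwi-1, the ratio was 72.7 for ptprd-9 and 2398 without X1 cell 37, 103 for glrb and 3286 without X1 cell 46, and 2302 for grm-3 and 878 without X1 cell 43. X1 over X2, it was 681 for glrb without X2 cell 16 and at least 136 for grm-3 without X1 cell 43. No log2 difference of X1 over X2 was given for grm-3, since the X2 cells had 0 reads of it. X1 tube means ran from 0 to 19.1 CPM for ptprd-9, 0 to 8.90 CPM for glrb and 0 to 2.823 CPM for grm-3 when either tube was left out. No paired analysis was possible because no test was made and cells of the gates that share a number are not said to share an animal. Reads without molecular identifiers and 3 to 9 cells per gene limit these values: the intervals cover counting error only, no sample repeats a gate with known animals or batches, and 0 of 72 X2 cells is compatible with a share of up to 4.17%.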
